A study of Homo sapiens with 8 samples.

Results

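The miR-29 family is a group of small regulatory RNAs whose 3p strands carry the same seed, the short 5′ stretch with which a miRNA pairs to its target transcripts. Its members were taken by name: hsa-miR-29a-5p, hsa-miR-29a-3p, hsa-miR-29b-1-5p, hsa-miR-29b-2-5p, hsa-miR-29b-3p, hsa-miR-29c-5p and hsa-miR-29c-3p (written below without hsa), which are 7 of the 1818 miRNA names found in at least 1 library. All 7 were listed in all 8 libraries and all 7 passed the filter on low counts, which kept 625 names. The libraries came from HCT116, a human colorectal carcinoma cell line, in which DICER had been restored either unchanged (WT) or carrying one of 3 substitutions, R1855L, R821H and R1003Q. Each of the 4 groups had 2 libraries, and all of them, WT included, were rescue cells. Small RNA was read by AQ-seq, a library method designed to reduce ligation bias. The parental DICER genotype, the promoter of the rescue construct, the amount of DICER made and whether a group is 1 clone are not stated in the labels.

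DICER cuts a precursor hairpin into a short duplex, and 1 of its strands, the guide, is usually kept by an Argonaute protein while the other, the passenger, is lost. In the miR-29 hairpins the 3p strand is known as the main guide. It is known for repressing collagens and other matrix proteins, the DNA methyltransferases DNMT3A and DNMT3B and the survival protein MCL1. The arginine changed in R1855L lies in the C-terminal double-stranded RNA-binding domain of DICER. The comparisons ask whether each substitution shifts the level of these strands, or the balance between them, relative to WT DICER.

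The 3 guide strands are shown first because they share what defines the family, with the seed (bases 2 to 8 from the 5′ end) in capitals, from RefSeq (GRCh38.p14).
miR-29a-3p: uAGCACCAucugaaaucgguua
miR-29b-3p: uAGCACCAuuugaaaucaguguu
miR-29c-3p: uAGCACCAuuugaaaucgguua
No other mature miRNA in the RefSeq table had this seed. Counted from the 5′ end, miR-29a-3p and miR-29c-3p differ only by C10U. The same comparison of miR-29a-3p with miR-29b-3p gives C10U, G18A, U21G and A22U, and miR-29b-3p is 23 bases long against 22. With a single base between them, miR-29a-3p and miR-29c-3p could exchange reads. The sources used here do not give the mapping settings, so the small miR-29c-3p count is uncertain in all 8 libraries.

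The 5p strands are shown for contrast, since their seeds, again in capitals, differ from each other and from the guides.
miR-29a-5p: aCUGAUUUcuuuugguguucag
miR-29b-1-5p: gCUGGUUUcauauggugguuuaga
miR-29b-2-5p: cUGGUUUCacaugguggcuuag
miR-29c-5p: uGACCGAUuucuccugguguuc
None of these 4 seeds was shared with another mature name in the RefSeq table. The 5p strands thus hold 4 separate seeds where the 3p strands hold 1.

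The 4 hairpins are shown because the strand comparisons turn on them, with the 5p strand and then the 3p strand in capitals.
MIR29A: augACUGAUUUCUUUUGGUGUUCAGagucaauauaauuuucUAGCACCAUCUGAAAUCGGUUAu
MIR29B1: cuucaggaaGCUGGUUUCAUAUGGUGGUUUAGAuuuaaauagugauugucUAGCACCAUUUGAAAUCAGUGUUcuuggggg
MIR29B2: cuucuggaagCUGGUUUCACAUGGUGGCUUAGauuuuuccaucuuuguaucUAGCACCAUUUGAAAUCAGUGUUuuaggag
MIR29C: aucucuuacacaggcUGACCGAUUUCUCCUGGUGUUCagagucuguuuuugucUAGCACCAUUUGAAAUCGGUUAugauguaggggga
In GRCh38.p14, MIR29A (chr7:130876747-130876810) and MIR29B1 (chr7:130877459-130877539) lie on the minus strand, 648 bases apart. MIR29C (chr1:207801852-207801939) and MIR29B2 (chr1:207802443-207802523) also lie on the minus strand, 503 bases apart. In GENCODE release 29 MIR29B1 overlaps an exon of the long non-coding RNA LINC-PINT, whose annotated end just reaches the 5′ end of MIR29A, and the second pair overlaps an exon of MIR29B2CHG, the miR-29b-2 and miR-29c host gene. MIR29B1 and MIR29B2 give the same 3p strand, so their miR-29b-3p reads were pooled, whereas their 5p strands had names of their own.

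Library totals ran from 462805 to 4269231 reads, and a count of 0 would allow up to 3 reads, or 0.703 to 6.48 CPM (counts scaled to a common library total). WT replicate 2, R1855L replicate 1 and R821H replicate 1 were deep, and the other 5 libraries, both R1003Q libraries among them, were shallow. With group in an edgeR model, 228 of 625 names (36.5%) differed between deep and shallow libraries, so values within depth classes, which hold 1 library a group or, for R1003Q, 2 shallow ones, are given beside the differences. Among the colorectal markers, miR-200b-3p was at 1303 CPM in WT, miR-194-5p at 164 CPM and miR-192-5p at 152 CPM. There miR-200c-3p was at 30.8 CPM and miR-141-3p at 35.0 CPM, and miR-215-5p had 0 to 5 reads a library. miR-141-3p was called lower in R1855L than in WT (log2 difference -1.39, edgeR adjusted p = 0.0422). Of the fibroblast markers, miR-145-5p was at 633 CPM in WT and miR-143-3p at 33.9 CPM, while miR-199a-5p had 1 to 21 reads and miR-214-3p 0 to 14. Of the blood markers, miR-142-3p was at 351 CPM in WT, miR-451a at 203 CPM and miR-144-3p at 35.1 CPM, while miR-223-3p, miR-150-5p and miR-155-5p had at most 9, 10 and 1 reads. The summed level of the 4 fibroblast markers was 635 to 742 CPM in WT and 631 to 955 in R1855L, and that of the 6 blood markers was 553 to 670 and 594 to 717. Their part in the results was not tested.

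The miR-29 family made up 2.78% and 4.09% of all miRNA reads in WT replicates 1 and 2. R1855L libraries held 2.96% and 2.5%, R821H libraries 3.61% and 2.85%, and R1003Q libraries 2.72% and 2.82%. Each mutant group had at least 1 library inside the WT range.

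Within WT, the guides miR-29a-3p and miR-29b-3p dominated. Levels are TMM-normalised CPM, as mean ± SD over 2 libraries, and all 7 mature strands are 22 to 24 bases long. miR-29a-3p stood at 13003 ± 4332 CPM and miR-29b-3p at 12539 ± 7924 CPM, and these neighbours did not differ beyond their spread. The strands miR-29a-5p (4648 ± 1617 CPM) and miR-29b-1-5p (3755 ± 1139 CPM) followed, also with overlapping libraries. miR-29c-3p at 395 ± 125 CPM and miR-29c-5p at 293 ± 27.8 CPM again overlapped. miR-29b-2-5p was lowest, at 74.5 ± 4.20 CPM, and its libraries overlapped with those of no other member. The order puts the strands named only for MIR29A or MIR29B1 far above those named only for MIR29C or MIR29B2, while miR-29b-3p is shared by both miR-29b hairpins.

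**Figure D1:**
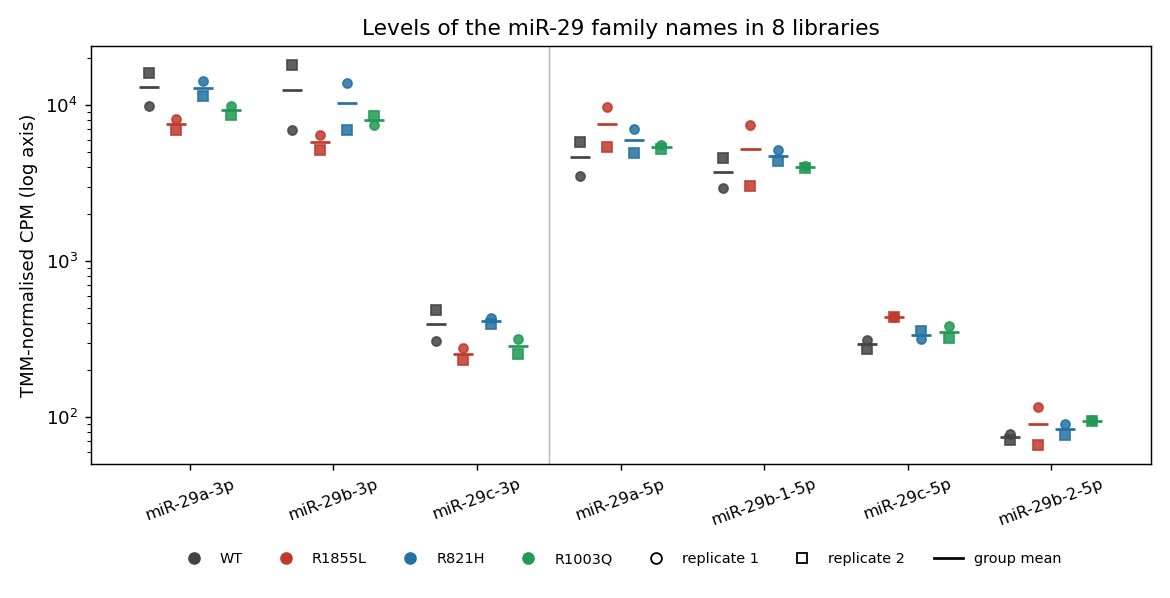
Level of each miR-29 name in every library, in TMM-normalised CPM on a log axis, with circles for replicate 1, squares for replicate 2 and lines for group means. For the 3 guide strands at left, both R1855L libraries (red) sit below both WT libraries (grey), and miR-29c-5p shows the opposite placement.

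The order differed in R1855L. There miR-29a-5p (7583 ± 3113 CPM) stood level with miR-29a-3p (7541 ± 872 CPM), and miR-29b-1-5p (5228 ± 3121 CPM) with miR-29b-3p (5819 ± 883 CPM), with overlapping libraries in both cases. miR-29c-5p (436 ± 0.413 CPM) was above miR-29c-3p (254 ± 31.8 CPM) in both libraries. R821H kept the WT order of means, with miR-29a-3p at 12935 ± 1969 CPM and miR-29b-3p at 10363 ± 4916 CPM. In R1003Q the means of the large strands also followed the WT order, from 9310 ± 885 CPM for miR-29a-3p to 4005 ± 68.5 CPM for miR-29b-1-5p, while miR-29c-5p (350 ± 43.1 CPM) stood above miR-29c-3p (285 ± 45.5 CPM) in both libraries.

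In the comparison of R1855L with WT, the 3 guide strands had lower means and the 4 passenger strands higher means, but no member passed the test on its level. edgeR's quasi-likelihood test with Benjamini-Hochberg adjustment called 0 of 7 members at an adjusted p under 0.05, against 5.76% of all names. At an unadjusted p under 0.05 edgeR gave 2 members, miR-29a-3p and miR-29c-5p, against 18.4% of all names, and DESeq2 called 0 members at its adjusted threshold, against 8.32% of all names. The median log2 difference was -0.79 over the 3 guides and 0.53 over the 4 passengers. Over all tested names it was 0.13, with -0.06 for the 243 names ending in 3p and 0.22 for the 268 ending in 5p. Each mutant was set against the same WT libraries, so the 3 comparisons with WT are not independent.

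miR-29a-3p, the most abundant guide, had 9940 and 16066 CPM in the WT libraries and 8157 and 6924 CPM in R1855L. Both R1855L libraries were below both WT libraries. The log2 difference was -0.79 (SE 0.30, 95% interval -1.49 to -0.08, edgeR adjusted p = 0.236). It was -0.98 between the deep libraries and -0.52 between the shallow ones. It was -1.08 without WT replicate 1 and -0.47 without WT replicate 2.

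miR-29b-3p, the guide made by both miR-29b hairpins, had 6936 and 18143 CPM in WT and 6444 and 5194 CPM in R1855L. The groups did not overlap, although WT replicate 1 was close to R1855L replicate 1. The log2 difference was -1.11 (SE 0.50, interval -2.28 to 0.06, edgeR adjusted p = 0.291). It was -1.49 between deep and -0.42 between shallow libraries, and -0.33 without WT replicate 2. This strand also had the widest spread in WT.

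miR-29c-3p had 307 and 484 CPM in WT and 277 and 232 CPM in R1855L, on 126 to 1859 reads in those 4 libraries. The log2 difference was -0.63 (SE 0.28, interval -1.29 to 0.03, edgeR adjusted p = 0.282). It was -0.80 between deep and -0.40 between shallow libraries, and -0.34 without WT replicate 2. All 3 guides therefore had both R1855L libraries below both WT libraries, a placement that 21.4% of all names showed.

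Among the passengers, miR-29c-5p had 313 and 274 CPM in WT and 437 and 436 CPM in R1855L. On the TMM scale it was the 1 passenger of 4 with both R1855L libraries above both WT libraries, as were 21.1% of all names. Its log2 difference was 0.57 (SE 0.22, interval 0.07 to 1.08, edgeR adjusted p = 0.221). Between deep libraries it was 0.67 and between shallow ones 0.48.

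miR-29a-5p had 3504 and 5791 CPM in WT and 9784 and 5382 CPM in R1855L, so the second R1855L library lay inside the WT range. The log2 difference was 0.71 (SE 0.38, interval -0.19 to 1.6, edgeR adjusted p = 0.379), with 0.76 between deep and 0.62 between shallow libraries. It was 0.21 without R1855L replicate 1 and 0.41 without WT replicate 1. miR-29b-1-5p had 2949 and 4561 CPM in WT and 7436 and 3021 CPM in R1855L. Its difference of 0.48 (SE 0.43, edgeR adjusted p = 0.616) became -0.31 without R1855L replicate 1, and was 0.71 between deep and 0.03 between shallow libraries. miR-29b-2-5p, with 77.5 and 71.5 CPM in WT and 115 and 66.2 CPM in R1855L, had 0.31 (SE 0.31, edgeR adjusted p = 0.659) and -0.17 without that library, with 0.68 between deep and -0.23 between shallow libraries. For both miR-29b passengers the sign of the difference thus rested on R1855L replicate 1.

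**Figure D2:**
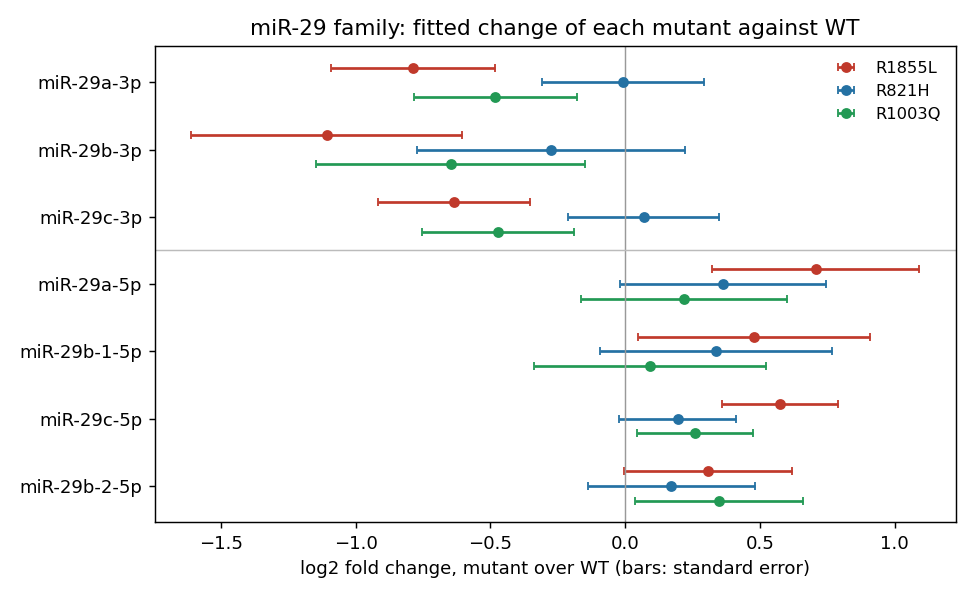
Fitted log2 difference of each mutant from WT for the 7 names, with standard error bars from edgeR. The R1855L points (red) for the 3 guide strands lie between -1.11 and -0.63 and those for the 4 passenger strands between 0.31 and 0.71. No point passed the adjusted threshold.

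Several members also moved with depth. With group in the edgeR model, miR-29b-3p was higher in deep than in shallow libraries by 0.90 on the log2 scale (SE 0.16, adjusted p = 8.69e-05). The same difference was 0.72 for miR-29b-1-5p, 0.69 for miR-29a-5p and 0.41 for miR-29a-3p, with adjusted p of 0.00109, 0.000197 and 0.0191. In all 4 of 7 members passed, all higher in deep libraries, against 17.8% of all names higher. miR-29c-3p (0.35), miR-29b-2-5p (0.27) and miR-29c-5p (-0.12) did not pass. These differences are on the TMM scale, whose factors were 0.879 to 0.908 in deep and 0.980 to 1.18 in shallow libraries. The scaling thus raised deep libraries relative to shallow ones. Without it, miR-29a-3p in R1855L was at 7400 CPM in the deep library and 8131 CPM in the shallow one. There miR-29b-3p was at 5845 and 6100 CPM. In WT and R821H both guides were higher in the deep library, as were miR-29a-5p and miR-29b-1-5p there and in R1855L. With depth class as a term, edgeR called 5 of 7 members in R1855L against WT, where 28.3% of all names were called. The 3 guides fell, by 0.75 for miR-29a-3p (adjusted p = 0.00103), 0.95 for miR-29b-3p (0.000648) and 0.62 for miR-29c-3p (0.0235). miR-29a-5p rose by 0.69 (adjusted p = 0.00222) and miR-29c-5p by 0.58 (0.0244) in that model, while miR-29b-1-5p and miR-29b-2-5p did not pass (0.130 and 0.357). With the log2 library total as a covariate instead, edgeR called miR-29a-5p and miR-29b-1-5p and none of the guides. With so few libraries a group, these p-values rest largely on a spread shared across names. The depth classes were read from the library totals and are not groups of the study.

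The balance between the strands was set within each library, so it did not depend on scaling. In WT, miR-29a gave 35.3 and 36.0 reads of the 5p strand per 100 of the 3p strand. The R1855L libraries gave 120 and 77.7, those of R821H 48.8 and 43.1, and those of R1003Q 56.0 and 60.4. The WT libraries were nearly identical, and all 6 mutant libraries were above them. Taken mutant by mutant, 32.1% of all pairs had this placement in R1855L, 18.9% in R821H and 27.9% in R1003Q. The share of pairs with it in every mutant was not computed. On the log2 scale the mean ratio was -1.49 ± 0.02 in WT and -0.05 ± 0.44 in R1855L. The ratio shifted toward the 5p strand in R1855L by 1.44 (SE 0.36, interval 0.63 to 2.25), which is 2.71-fold, and passed limma's test across 190 strand pairs (adjusted p = 0.0354).

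**Figure D3:**
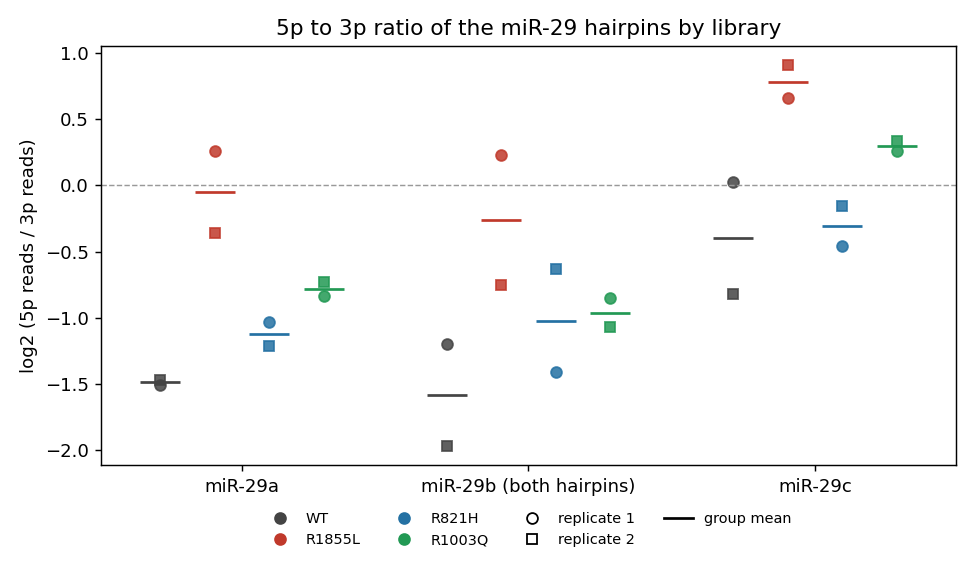
Log2 ratio of 5p to 3p reads in each library for miR-29a, miR-29b (5p reads of both hairpins over the shared 3p strand) and miR-29c, with circles for replicate 1, squares for replicate 2 and lines for group means. Both R1855L libraries (red) sit above both WT libraries (grey) for each hairpin family, and the WT libraries of miR-29a lie at -1.5 and -1.47.

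For miR-29b the 5p reads per 100 reads of the 3p strand were 43.6 and 25.5 in WT and 117 and 59.4 in R1855L. The log2 shift was 1.32 (SE 0.47, interval 0.27 to 2.37) and did not pass (limma adjusted p = 0.150). miR-29c gave 102 and 56.6 in WT and 158 and 188 in R1855L. Its 5p strand outnumbered the 3p strand in both R1855L libraries, in WT replicate 1 and in both R1003Q libraries (120 and 126). The miR-29c shift was 1.18 (SE 0.37, interval 0.36 to 2.00) and did not pass either (limma adjusted p = 0.0931). For each hairpin family both R1855L libraries were above both WT libraries, as they were for 32.1% of all pairs.

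limma thus called 1 of the 3 miR-29 pairs in R1855L against WT, where it called 8.95% of all pairs, and 6.84% toward the 5p strand. The median shift of all pairs was 0.23, and 63.2% of pairs were above 0. Ordered by their shift toward the 5p strand, the miR-29a, miR-29b and miR-29c pairs were 20, 25 and 29 of 190. Between the deep libraries alone the shift was 1.73 for miR-29a, 2.20 for miR-29b and 1.48 for miR-29c, and between the shallow libraries it was 1.14, 0.45 and 0.88. With depth class as a term all 3 pairs passed (limma adjusted p = 8.80e-05, 0.000468 and 0.00117), where 21.1% of all pairs did. The fitted shifts could not change with the term, since WT and R1855L each had 1 deep and 1 shallow library. The SE of the shifts became 0.320, 0.322 and 0.310, from 0.360, 0.470 and 0.367 without the term. With 2 libraries a group, these p-values rest largely on a spread shared across pairs.

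The call for miR-29a was close to the threshold. Leaving out R1855L replicate 2 kept it (shift 1.75, limma adjusted p = 0.0246), and leaving out R1855L replicate 1 gave a shift of 1.12 and an adjusted p of 0.142. The limma adjusted p was 0.144 and 0.142 without WT replicates 1 and 2, 0.0620 and 0.0644 without R821H replicates 1 and 2, and 0.104 and 0.0993 without R1003Q replicates 1 and 2. Removing a library also lowers the degrees of freedom of the shared spread. A fit to the 4 R1855L and WT libraries alone gave an adjusted p of 0.211. Across the 14 alternatives run, the miR-29a shift lost its call in 9. It stayed toward the 5p strand in 14, but most of these could not change its size. Only the pseudocount and leaving out a WT or R1855L library could do so. The miR-29b pair passed without R1855L replicate 2 (limma adjusted p = 0.0498).

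**Figure D4:**
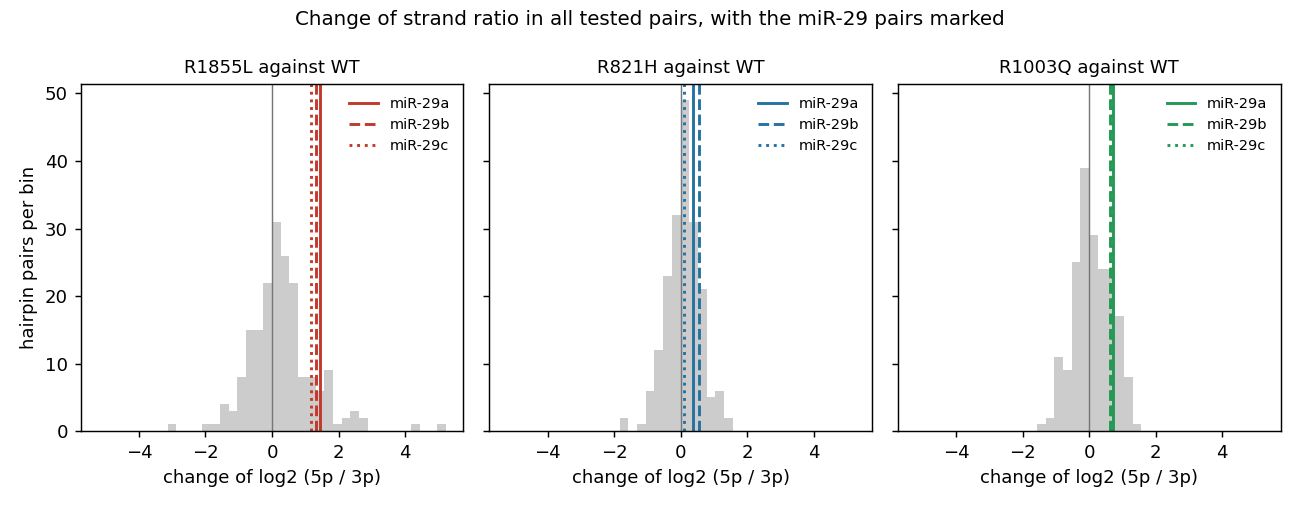
Histograms of the change in log2 5p to 3p ratio against WT over the 190 strand pairs, for R1855L, R821H and R1003Q, with vertical lines at the miR-29a, miR-29b and miR-29c pairs. In the R1855L panel the 3 lines lie between 1.18 and 1.44, right of the median of 0.23, and other pairs lie further right.

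Summed over the family, the 5p strands made up 28.5% (exact Clopper-Pearson 95% interval 28 to 29) and 23.6% (23.4 to 23.8) of miR-29 reads in the WT libraries. In R1855L they made up 54.4% (54.1 to 54.8) and 41.9% (41 to 42.8), so both libraries were above both WT libraries. The R821H libraries had 30.5% and 34.2%, and the R1003Q libraries 36.2% and 35.5%. Among R1855L libraries, replicate 1 held more 5p than 3p reads. The intervals cover counting error only.

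As a share of all miRNA reads, the 3p strands took 1.99% and 3.12% in WT and 1.35% and 1.45% in R1855L. The 5p strands took 0.792% and 0.963% in WT and 1.61% and 1.05% in R1855L. The guide share was thus lower, and the passenger share higher, in both R1855L libraries than in both WT libraries. These are shares of library totals without TMM scaling, and no matching figure over all names was computed. On the TMM scale the most abundant 5p strands, miR-29a-5p and miR-29b-1-5p, overlapped between R1855L and WT.

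R821H showed no call in the family. edgeR called 0 of 7 members against WT at an adjusted p under 0.05, 0 at an unadjusted p under 0.05 and 0 with DESeq2, where edgeR called 0% of all names, and 3.2% at the unadjusted threshold, and DESeq2 0.16%. miR-29a-3p had 14327 and 11543 CPM in R821H, inside the WT range, and its log2 difference was -0.01 (SE 0.30, interval -0.71 to 0.70). For miR-29b-3p it was -0.28 (SE 0.50, interval -1.43 to 0.88), and for miR-29c-3p 0.07 (SE 0.28, interval -0.58 to 0.72). The intervals leave room for differences of either sign, and within depth classes the guides had both signs. Between deep libraries the differences were -0.17, -0.39 and -0.16 for miR-29a-3p, miR-29b-3p and miR-29c-3p, and between shallow ones 0.22, -0.01 and 0.37. The 4 passengers had differences from 0.17 for miR-29b-2-5p to 0.36 for miR-29a-5p. Their range was 0.17 to 0.34 between deep libraries and -0.02 (miR-29b-2-5p) to 0.56 between shallow ones. miR-29c-5p, at 315 and 356 CPM, was the 1 member whose R821H libraries were both above WT on the TMM scale, as were those of 15.4% of names. Its difference of 0.19 had an edgeR adjusted p of 0.994. Adding depth class as a term, edgeR still called 0 of 7 members, beside 2.56% of all names.

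The R821H strand ratios were also not called: limma called 0 of 3 pairs against WT and 0% of all pairs, with 2.63% of pairs at an unadjusted p under 0.05 and none of the miR-29 pairs among them. The shift was 0.36 for miR-29a (interval -0.44 to 1.17), 0.56 for miR-29b (interval -0.49 to 1.61) and 0.09 for miR-29c (interval -0.73 to 0.91). miR-29a was the 1 pair of 3 whose R821H libraries were both above WT, as in 18.9% of all pairs. With depth class as a term limma called 0 of 3 and 0% of all pairs.

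In R1003Q no member was called, and the fitted differences of the 3 guides varied with how depth was handled. Both R1003Q libraries were shallow, so any depth term here is estimated from the other groups. Within R1003Q, depth and the substitution cannot be told apart. Against the shallow WT library alone the guide differences were -0.10 for miR-29a-3p, 0.20 for miR-29b-3p and -0.11 for miR-29c-3p, so miR-29b-3p turned in direction. The fit with depth class as a term gave -0.24, -0.06 and -0.27. edgeR called 0 of 7 members against WT, 0 at an unadjusted p under 0.05 and 0 with DESeq2, where edgeR called 0% of all names, and 4.96% at the unadjusted threshold, and DESeq2 0%. miR-29a-3p had 9936 and 8684 CPM, both below the WT libraries, the first by only a few CPM, a placement shared by 17.8% of names. Its log2 difference was -0.48 (SE 0.30, interval -1.19 to 0.22, edgeR adjusted p = 0.857). miR-29b-3p, at 7500 and 8514 CPM, lay inside the WT range with a difference of -0.65 (SE 0.50), and miR-29c-3p, at 317 and 253 CPM, overlapped with WT at -0.47 (SE 0.28). On the TMM scale the passengers miR-29b-2-5p (95.7 and 93.8 CPM) and miR-29c-5p (381 and 320 CPM) were above both WT libraries, as were 22.9% of names. Their differences of 0.35 and 0.26 had edgeR adjusted p of 0.881 and 0.880. Against the shallow WT library alone the 4 passengers differed by 0.16 for miR-29c-5p to 0.62 for miR-29a-5p. The depth term gave 0 of 7 members as well, beside 0.32% of all names.

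The R1003Q strand ratios shifted toward the 5p strand in the means, by 0.71 for miR-29a (interval -0.10 to 1.51), 0.62 for miR-29b (interval -0.43 to 1.67) and 0.70 for miR-29c (interval -0.13 to 1.52). limma called 0 of 3 (adjusted p = 0.799, 0.831 and 0.799) and 0% of all pairs, with 4.74% at an unadjusted p under 0.05 and no miR-29 pair among them. Both R1003Q libraries were above both WT libraries for 3 of 3 pairs, as for 27.9% of all pairs. Against the shallow WT library alone the shifts were 0.72 for miR-29a, 0.23 for miR-29b and 0.27 for miR-29c. With depth class as a term limma called 0 of 3, beside 0.526% of all pairs.

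Set against each other, the mutants did not differ in any member by edgeR's adjusted p. The difference of R821H from R1855L was 0.78 for miR-29a-3p (SE 0.30, edgeR adjusted p = 0.275), 0.83 for miR-29b-3p (SE 0.50) and 0.70 for miR-29c-3p (SE 0.28, edgeR adjusted p = 0.291), with 0 of 7 members and 3.84% of all names called. At an unadjusted p under 0.05 edgeR gave 2 of the 7, miR-29a-3p and miR-29c-3p, against 14.9% of all names. With depth class as a term these 3 guides passed, beside 18.2% of all names. R1003Q differed from R1855L by 0.30 for miR-29a-3p, 0.46 for miR-29b-3p and 0.16 for miR-29c-3p, with 0 of 7 members and 3.68% of names called, and 0 members against 14.7% of names at an unadjusted p under 0.05. There miR-29b-3p passed once depth class was a term, 1 of 7 members beside 14.9% of names. R1003Q differed from R821H by -0.47, -0.37 and -0.54 for the same guides, with 0 of 7 members called, where 0% of names were called, and 0 members against 1.6% of names at the unadjusted threshold.

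The strand ratio of R821H was below that of R1855L by 1.07 for miR-29a and by 1.09 for miR-29c on the log2 scale (limma adjusted p = 0.124 for each), and by 0.76 for miR-29b (0.532). limma called 0 of 3 pairs there and 7.89% of all pairs, and with depth class as a term 2 of 3 (miR-29a and miR-29c) beside 22.1%. For R1003Q against R1855L the ratios were lower by 0.73, 0.70 and 0.48 (limma adjusted p = 0.367, 0.529 and 0.603), with 5.79% of all pairs called. Adding depth class passed none of these 3 pairs either (limma adjusted p = 0.273, 0.0963 and 0.125), beside 17.9% of all pairs. Only the fit with the depth term separated R1855L from R821H, in 2 of 3 pairs, and its p-values rest largely on a spread shared across pairs. Without that term no miR-29 pair passed in either comparison.

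Within the family the guides kept a narrow proportion for 1 pair and a loose one for another. The ratio of miR-29a-3p to miR-29c-3p reads was 32.4 and 33.2 for WT, 29.5 and 29.9 for R1855L, 33.1 and 29.1 for R821H, and 31.3 and 34.3 for R1003Q. The ratio of miR-29a-3p to miR-29b-3p ranged more widely, from 0.886 in WT replicate 2 to 1.68 in R821H replicate 2. miR-29b-3p was thus more abundant than miR-29a-3p in 1 of the 8 libraries. miR-29c-3p took 1.39% to 2.11% of all guide reads.

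Of the 5p reads of the miR-29b hairpins, 97.4% to 98.5% were miR-29b-1-5p. The ratio of miR-29b-1-5p to miR-29b-2-5p was 38.1 and 63.8 in WT and 64.6 and 45.6 in R1855L, and these groups overlapped. How much of the pooled miR-29b-3p came from each hairpin cannot be read from its name. The ratio of miR-29a-5p to miR-29b-1-5p was 1.19 and 1.27 in WT and 1.32 and 1.78 in R1855L. Exact permutation tests, two-sided, were run on 18 such ratios of a mutant against WT. With 2 libraries against 2 their smallest possible p is 0.333, and all adjusted p were 1.

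Across the 8 libraries, log2 CPM of miR-29a-3p had Pearson r = 0.98 with miR-29c-3p, 0.89 with miR-29b-3p, -0.02 with miR-29a-5p and -0.79 with miR-29c-5p. These values are descriptive, since the libraries share groups, depth classes and scaling, and miR-29a-3p and miR-29c-3p may share reads. Outside the family, the 5 names most like miR-29a-3p among 332 with at least 50 CPM were miR-16-2-3p (r = 0.95), miR-151a-5p (0.91), miR-320a (0.89), miR-340-5p (0.87) and miR-7-5p (0.87), over the same 8 libraries. On the TMM scale all 5 were lowest in R1855L replicate 2, and 4 were highest in WT replicate 2, with miR-16-2-3p highest in R821H replicate 1. On that scale miR-29a-3p itself was lowest in R1855L replicate 2 and highest in WT replicate 2. Choosing names by their correlation with miR-29a-3p therefore favours these extremes. Without TMM scaling miR-29a-3p was lowest in R1855L replicate 1, at 7400 CPM against 8131 CPM in replicate 2.

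Other miRNAs known to repress DNA methyltransferases, TET enzymes or EZH2 were taken as a list of 12, of which 11 were tested. In R1855L against WT edgeR called 1 of the 11 lower and 0 higher, against 5.44% and 0.32% of all names, and the list's median log2 difference was -0.11. The called name was miR-185-5p, known to target DNMT1, which fell from 659 to 203 CPM in the means (log2 difference -1.70, SE 0.20, edgeR adjusted p = 0.00513). miR-26a-5p, which targets EZH2 and was the most abundant of the list at 8120 CPM in WT, had a difference of -0.19 (SE 0.22). In R821H and R1003Q against WT edgeR called 0 of the 11, beside 0% of all names in each comparison. miR-185-5p was below both WT libraries there too, with differences of -1.0 in R821H and -0.70 in R1003Q (edgeR adjusted p = 0.346 and 0.857). In R1003Q 17.8% of all names had this placement, and the share for R821H is not given here. Once depth class was a term miR-185-5p passed in R821H (edgeR adjusted p = 0.00246), 1 of 11 names beside 2.56% of all names. In R1003Q 0 of 11 passed, beside 0.32% of all names.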

How the data were processed

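Sample titles gave the groups and replicate numbers. Per the labels' protocols, 100 µg of TRIzol-extracted total RNA entered each AQ-seq library, run on a NovaSeq instrument. Tools named in the submitters' processing notes are BWA, bedtools and cutadapt, and the named builds are mm10 and hg38, with no roles. The authors deposited 1 table of estimated counts per library, giving reads per mature miRNA name, not normalised and with fractions for some names, per the file headers and values. A name absent from a table was set to 0.

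Counts were rounded and tested with edgeR 4.0.16 (R 4.3.3, TMM scaling, filterByExpr, 1 robust quasi-likelihood model of all 8 libraries), and 625 of 1818 names were tested, holding at least 99.8% of the reads of each library. Ratios of 5p to 3p reads, with 0.5 added to each and on the log2 scale, were tested with limma 3.58.1 in 190 pairs with at least 80 reads per strand, summing the 5p strands of both miR-29b hairpins. P-values were adjusted by Benjamini-Hochberg over all names or pairs, and a call is an adjusted p under 0.05. SE and 95% intervals come from the same models. Depth classes were separated at the widest gap of log library totals.

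Sequences and positions came from RefSeq (GRCh38.p14), whose table held 1603 of the 1818 names, and gene overlaps from GENCODE release 29. Members, lists and tests were chosen with earlier results of these data known. The named miRNAs are the 7 members, the 5 names with at least 50 CPM most correlated with miR-29a-3p, and the called and most abundant members of the list of methylation regulators. The alternatives comprised library totals, median-ratio size factors, DESeq2 1.42.0, no filter, a filter of 50 CPM, the 4 libraries compared alone, a replicate block, a depth term, a log2 library total covariate, each library left out, a pseudocount of 5 and a minimum of 400 reads. A crossed block was added after seeing the data. Since no label names separate cultures, the p-values reflect only the variation among these libraries, which may be technical. Figures were drawn with matplotlib 3.10.9.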

Additional observations from a re-analysis of the deposited data

How the results depend on the processing

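With 2 libraries a group, calls depended on how spread and depth were modelled. In R1855L against WT, edgeR called 36 names, 14 with library totals, 2 in the 4 libraries alone, 177 with depth class, 162 with the log2 total and 8 to 26 with a library left out. Called members were 0, but 1 without a filter (miR-29b-3p, -1.26), 5 with depth class and 2 with the log2 total (miR-29a-5p and miR-29b-1-5p). In R821H against WT the count of names was 0, but 1 with DESeq2, 16 with depth class and 4 with the log2 total. In R1003Q against WT it was 0, and 2 with depth class. R821H against R1855L gave 24 names, and 39 with DESeq2, 8 with library totals, 40 without a filter, 6 in 4 libraries, 114 with depth class, 86 with the log2 total and 2 to 22 with a library left out, with 3 members under depth class and 1 under the log2 total. R1003Q against R1855L gave 23, and 40, 11 and 10 with DESeq2, library totals and 4 libraries, 93 and 81 with depth class and the log2 total, and 2 to 20 with a library left out, with 1 member under depth class.

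For strand ratios in R1855L against WT, limma called 1 miR-29 pair and 17 pairs in all. The counts were 0 and 3 in the 4 libraries alone, 3 and 40 with depth class, and 0 to 2 and 4 to 16 with a library left out. In R1003Q depth class gave 1 pair in all. Deviations of same-numbered libraries from their group means, over 625 names, correlated at -0.64 for WT with R1855L, -0.67 for WT with R821H, 0.07 for WT with R1003Q, 0.50 for R1855L with R821H, 0.03 for R1855L with R1003Q and -0.11 for R821H with R1003Q, so the numbers were not taken to pair the libraries. With the replicate block, calls were 19 names for R1855L against WT, 15 for R821H against R1855L and 13 for R1003Q against R1855L, and 0 miR-29 pairs and 10 pairs in all for R1855L. The crossed pairing, chosen after seeing the data, gave 68 names, 30 pairs and 2 miR-29 pairs in R1855L against WT.

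Signs of some uncalled differences turned, and the cause was not tested. In R1855L, with a library left out, miR-29b-1-5p ran from -0.31 (without R1855L replicate 1) to 0.97 and miR-29b-2-5p from -0.17 (the same library) to 0.60. In R821H miR-29c-3p became -0.029 with library totals, -0.026 without a filter and -0.23 to 0.33 with a library left out. There miR-29a-3p became 0.019 with depth class, 0.094 with the log2 total, 0.0093 with the crossed block, 0.14 without R821H replicate 2 and ran from -0.32 to 0.28 with a library left out. miR-29b-3p ran from -0.86 to 0.48, and miR-29c-5p became -0.00097 without WT replicate 2. In R1003Q miR-29b-1-5p became -0.068 without a filter and ran from -0.18 to 0.36, miR-29a-5p ran from -0.089 to 0.55, and miR-29b-3p became 0.013 with the log2 total and ran from -1.17 to 0.13. The R821H miR-29c ratio ran from -0.33 to 0.51.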
